A study of Mus musculus with 6 samples.

Results

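ADAM and ADAMTS proteases were followed in mouse airway smooth muscle cells grown with and without airway epithelial cells. The members were all genes of the deposited gene table whose symbol is Adam with a number, or starts with Adamts, other than Adamts2 and Adamts14. These were 47 of 17023 genes, made up of 25 ADAM genes, 17 ADAMTS proteases and 5 ADAMTS-like genes. Primary smooth muscle cells from the lungs of mice labelled WT were kept for 5 days in transwell plates, in which a porous membrane parts 2 compartments. In the co-culture group (3 libraries) airway epithelial cells shared the plate, and in the control group (3 libraries) they did not. Total RNA of the muscle cells was sequenced, and the submitters state a smooth muscle proliferation phenotype as the reason for the study. The sources used here do not give the age or sex of the mice, the number of animals, or whether libraries of 1 group came from separate cultures, so p-values measure the spread between these libraries, which may be technical.

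ADAM proteins are membrane proteins with a metalloprotease and a disintegrin domain, and many of them are sheddases that release growth factors, cytokines and receptors from the cell surface. ADAMTS proteases are secreted, carry thrombospondin repeats that hold them in the matrix, and cleave proteoglycans, procollagen and microfibril proteins, while ADAMTS-like proteins share the repeats but have no protease domain. Both groups are made as inactive precursors that furin-type convertases open, and tissue inhibitors of metalloproteinases block many of them. In airway smooth muscle the family is known above all for ADAM33, whose gene was linked to asthma and airway hyperresponsiveness in people.

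Libraries held 18496623, 17496056 and 18029916 estimated read counts in co-culture against 18288954, 17997380 and 18410934 in controls. The distance of libraries, a chi-square per degree of freedom over genes in which 1 is counting noise, was 4.12 to 6.78 within co-culture and 3.29 for control 5 with control 6. Control 4 was at 96.6 and 105 from these 2, and pairs from different groups at 48.0 to 128. Smooth muscle markers summed to 343 to 391 CPM (counts scaled to a common library size with TMM factors) in co-culture against 426 to 460 CPM in controls. Of the defining contractile genes, Myh11 was near 0 at 0.892 ± 0.0677 and 1.247 ± 0.492 CPM, and Des at 0.445 ± 0.131 and 0.356 ± 0.127 CPM, in co-culture and controls (SD, n = 3 each). Of 11 tested smooth muscle markers 4 fell, among them Acta2 (smooth muscle actin) at 60.3 ± 16.6 CPM in co-culture against 136 ± 14.3 CPM in controls. The 1 that rose was the transcription factor Myocd, at 0.802 ± 0.0305 CPM in co-culture against 0.114 ± 0.00823 CPM in controls. Myocd rested on 16, 14 and 15 counts in co-culture against 2 in each control. It had enough reads for a test only in co-culture, and its small SD in controls comes from 3 equal counts. Mylk, Synpo2 and Lmod1 did not pass, at log2 fold changes of 0.44, 0.36 and 0.33 without overlap. Fibroblast markers summed to 949 to 1059 CPM in co-culture against 766 to 922 CPM in controls, most of it Pdgfra (847 ± 57.8 CPM in co-culture against 732 ± 91.1 CPM in controls), which did not pass. Of the 5 tested, Dpt and Cd34 rose, while Col14a1 (5.19 ± 0.715 CPM in co-culture against 39.2 ± 7.55 CPM in controls) and Tcf21 fell. Epithelial markers summed to 8.49 to 9.76 CPM in co-culture against 17.7 to 26.1 CPM in controls, where most of it was Krt18, and 9 of 11 were below 1 CPM in every library. These low markers did not share a direction. Krt5 and Cldn4 had 0 counts in each co-culture library and 0 to 2 in controls, and Krt8 had 1, 1 and 0 against 2, 5 and 3. Elf3 had 2, 5 and 2 counts in co-culture against 0 in each control, and Foxj1 had 3, 4 and 3 against 1 in each control. The 2 tested epithelial markers moved in opposite directions, Krt18 downward (4.54 ± 0.369 CPM in co-culture against 20.8 ± 4.39 CPM in controls) and Trp63 upward (3.20 ± 0.107 CPM in co-culture against 0.825 ± 0.186 CPM in controls). Leukocyte markers summed to 47.4 to 53.3 CPM in co-culture against 64.4 to 116 CPM in controls. Most of this was Lyz2, which did not pass and stood at 103 CPM in control 4. Of the 5 tested, only Csf1r passed, downward (1.23 ± 0.215 CPM in co-culture against 3.23 ± 0.547 CPM in controls). Endothelial markers summed to 2.26 to 3.12 CPM in co-culture and 2.04 to 3.08 CPM in controls. In the same order of groups, mesothelial markers summed to 0.827 to 1.46 and 1.49 to 1.67 CPM. Pericyte markers summed to 38.6 to 57.8 and 60.4 to 72.2 CPM, and of these Rgs5 fell and Kcnj8 rose. Kcnj8 too had enough reads for a test only in co-culture, with 11, 10 and 14 counts against 2, 5 and 3 in controls. The part of these marker differences in the results below was not tested.

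Upstream sequences were read for the called genes found in a RefSeq table of promoters (build GRCm38.p6, 24 of 47 members matched, 5 of them called), because 4 of these 5 fell together and 1 rose. Each window is the stretch of 250 bases just before a transcription start listed there, read 5′ to 3′ on the gene's strand, and 0 of its bases lie in an exon of the GENCODE vM21 annotation. The RefSeq gene spans reach farther upstream than these starts for 4 of the 5, so that 174 of the 250 bases lie inside the span of Adam23, 152 inside that of Adam22 and 250 inside those of Adamts9 and Adam19, against 0 for Adamts12. Bases just after the listed start were sought in GENCODE transcripts of the same gene. They were found for Adam23, Adam22 and Adamts12 but not for Adamts9, and the Adam19 start shown was not checked. Shown are the stretch around the word that all 5 hold, a stretch of Adam19 with 2 further words, and the whole window of Adamts12. Capitals mark the words searched for on both strands, which are those of AP-1 (TGANTCA), NF-kB (its usual 10-letter forms) and TEAD (GGAATG), the core word of the aryl hydrocarbon receptor (GCGTG), and the words of Sp1 (GGGGCGGGG), TATA boxes (TATAAA) and TCF/LEF, which is CTTTGAA with A or T as its last letter.
Adam23, rose, chr1:63445852-63445880, plus strand: cgcccgcgccgcGCGTGcccgtgccgctc
Adam22, fell, chr5:8368226-8368254, minus strand: gccgggtgcggcGCGTGgggcaagtgcac
Adamts9, fell, chr6:92943562-92943590, minus strand: ctcctcctggagGCGTGcacctagggtat
Adamts12, fell, chr15:11064535-11064563, plus strand: atggggggggggGCGTGttgtcctaggag
Adam19, fell, chr11:46055919-46055947, plus strand: accccctcctccGCGTGgcgcctcccctc
Adam19, fell, chr11:46055853-46055882, plus strand: TGAGTCAgcgatgctcccggGGGGCTTCCC
Adamts12, whole window, chr15:11064523-11064772, plus strand: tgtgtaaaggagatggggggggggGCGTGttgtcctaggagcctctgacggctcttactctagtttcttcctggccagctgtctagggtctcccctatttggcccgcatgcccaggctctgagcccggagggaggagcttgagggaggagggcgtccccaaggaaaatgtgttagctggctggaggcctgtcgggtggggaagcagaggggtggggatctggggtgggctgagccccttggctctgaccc
For Adam19 the table lists 3 starts, and the window shown is the only one that held any of the words. It was taken for that reason, so the presence of words in the Adam19 window follows from the choice. The GCGTG word stood at position -27 from the start in Adam23, -82 in Adam22, -44 in Adamts9, -226 in Adamts12 and -53 in Adam19. Counted over windows of 300 bases that also take in the first 50 of the transcript, it was found in 15 of the 24 matched members, namely 5 of 5 called, 8 of 11 tested but not called and 2 of 8 untested. A member was counted if any of its listed starts held the word, and for Adam19 only 1 of the 3 did. Shares of promoters are counted per start, so they and the member counts are of unlike units. The word was in 32.4% of all 32851 promoters and in 57.8% of the 7570 promoters with a GC content of 60% to 72%. The Adam19 window also held TGAGTCA at -131, an NF-kB word at -111 and the TEAD word, read on the other strand, at -32, and the Adamts9 window held the Sp1 word on the other strand at -9. Shares of all promoters with these words were 7.81% for AP-1, 3.49% for NF-kB, 14.7% for TEAD, 11.4% for Sp1, 8.65% for TCF/LEF and 13.6% for TATA, and a match in such a window is a description of the letters alone.

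Enough reads for a test were found for 29 of the 47 members. With an adjusted p under 0.05 (edgeR quasi-likelihood fit of all genes, Benjamini-Hochberg), 5 rose in co-culture, 8 fell and 16 did not pass. The 13 called members were 44.8% of those tested, where 20.6% of all 12936 genes tested were called. Split by direction, 17.2% of the tested members rose and 27.6% fell, against 10.3% of all genes in each direction. Ranges of the groups did not overlap for 18 of 29 members (62.1%), among them all 13 called, and for 42.9% of all genes. Mean levels were similar to those of other genes, with a median of 34.0 CPM over tested members and 29.3 CPM over all genes tested. The median log2 fold change, co-culture over control, was -0.05 over tested members and -0.04 over all genes tested. Changes of at least 2-fold were found in 3 members that rose (Adamts8, Adamtsl1 and Adam33) and 3 that fell (Adamts9, Adam12 and Adamts12), and in 342 and 323 of all genes. RNA of a whole culture was measured, so fewer cells of a type and less RNA per cell cannot be told apart.

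**Figure D1:**
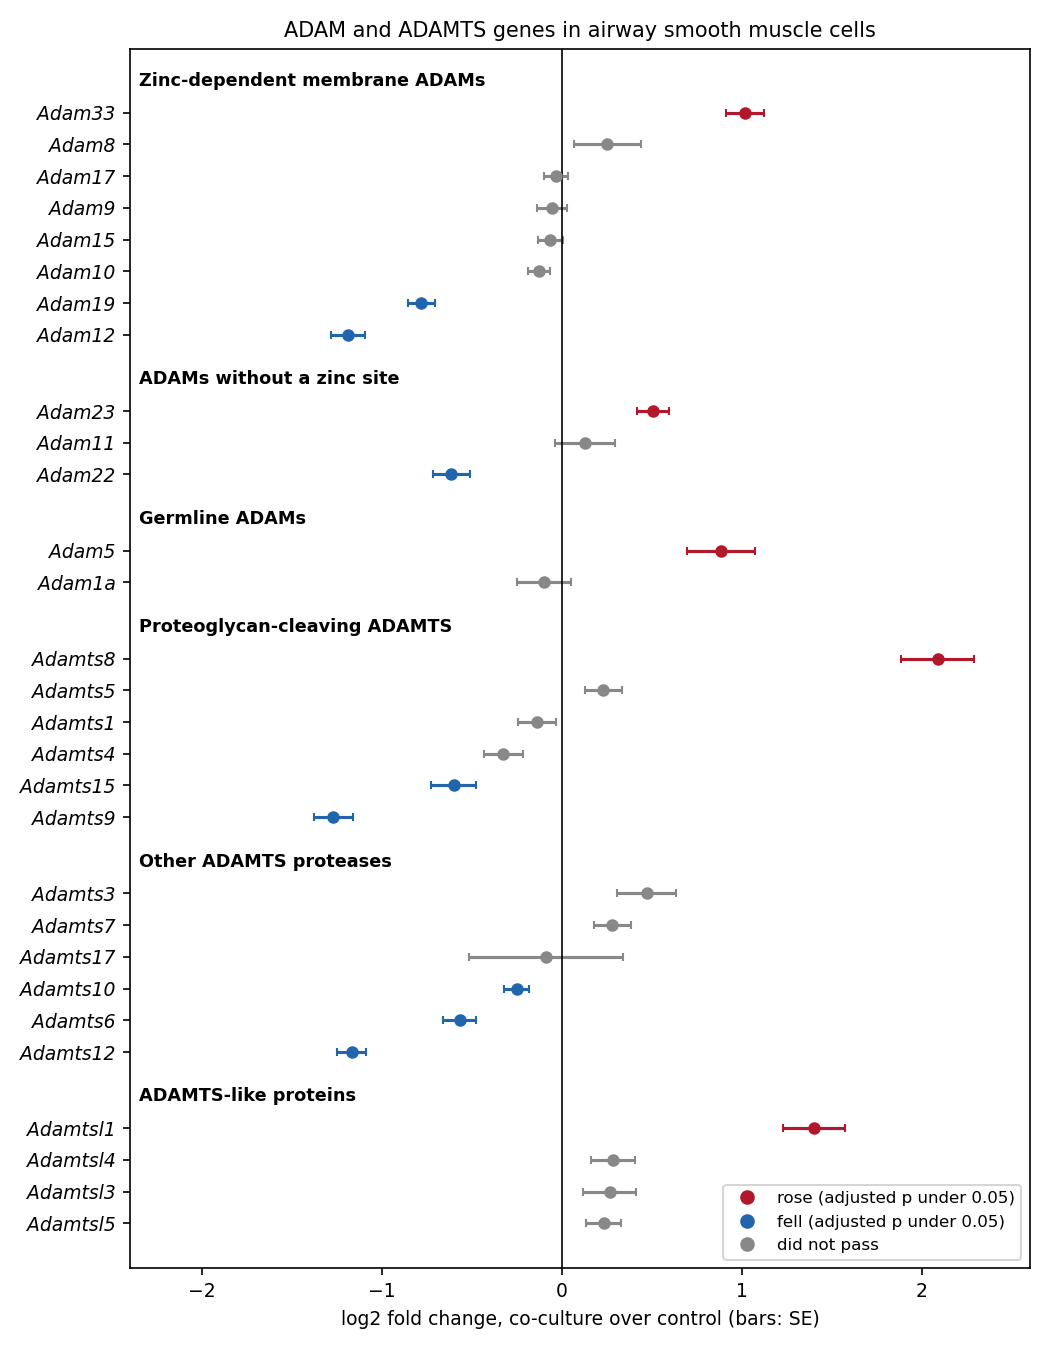
Log2 fold change of the 29 tested members, co-culture over control, grouped by role, with bars of 1 SE. Adamts8 lies farthest right at 2.09 and Adamts9 farthest left at -1.27, and the 5 members that rose and the 8 that fell are spread over the role groups.

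The zinc-dependent membrane ADAMs hold the sheddases, and of 8 tested 1 rose and 2 fell (median log2 fold change -0.06), against 10.3% of all genes tested in each direction. Adam12 (meltrin alpha, gene ID 11489, chr7:133883199-134225097), which releases heparin-binding EGF and cleaves IGF-binding proteins, had 93.0, 103 and 104 CPM in co-culture libraries 1 to 3 and 203, 240 and 242 CPM in control libraries 4 to 6. Each co-culture library lay below every control, with control 4 the lowest of the controls. The gene fell 2.28-fold (log2 fold change -1.19 ± 0.09 SE, edgeR adjusted p = 4.93e-04). Adam19 (meltrin beta, gene ID 11492, chr11:46054502-46147347), its close relative and a sheddase of neuregulins, had 158, 158 and 165 CPM in co-culture against 252, 290 and 283 CPM in controls. Here too the groups did not overlap, and the co-culture libraries lay within 7 CPM of each other. It fell 1.72-fold (log2 fold change -0.78 ± 0.07 SE, edgeR adjusted p = 0.00105).

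Adam33 (gene ID 110751, chr2:131050819-131063814), a membrane protease of mesenchymal cells, moved the other way. Its level was 13.3, 12.4 and 11.9 CPM in co-culture against 5.56, 6.55 and 6.46 CPM in controls, so that the lowest co-culture library stood well above the highest control. The rise was 2.02-fold (log2 fold change 1.02 ± 0.11 SE, edgeR adjusted p = 0.00151). Adam10 and Adam17, the main sheddases of Notch receptors and of TNF, did not pass the test. Adam10 had 203, 199 and 204 CPM in co-culture against 228, 213 and 220 CPM in controls, groups that did not overlap although the difference was small (log2 fold change -0.13 ± 0.06 SE, edgeR adjusted p = 0.181). For Adam17 the values were 181, 187 and 189 CPM in co-culture against 178, 192 and 200 CPM in controls, with overlapping ranges (log2 fold change -0.03 ± 0.07 SE, edgeR adjusted p = 0.763). With log2 fold changes of -0.05 ± 0.08, -0.06 ± 0.07 and 0.25 ± 0.18 SE, Adam9, Adam15 and Adam8, other membrane proteases of this type, also missed the threshold. Adam28, a further member of the group, had 0 to 1 counts in each library and was not tested.

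Adam11, Adam22 and Adam23 lack the catalytic zinc site and serve as receptors, the last 2 for secreted LGI proteins at synapses and nerve sheaths. Adam23 (gene ID 23792, chr1:63445717-63596111) rose, at 88.8, 100.1 and 97.5 CPM in co-culture against 60.1, 69.9 and 71.6 CPM in controls. All co-culture libraries lay above all controls, for a 1.42-fold difference (log2 fold change 0.51 ± 0.09 SE, edgeR adjusted p = 0.0102). The call was lost without co-culture library 3 (edgeR adjusted p = 0.0519). Adam22 (gene ID 11496, chr5:8072347-8368312) fell, at 14.4, 16.1 and 15.3 CPM in co-culture against 20.8, 24.5 and 24.9 CPM in controls. The 2 LGI receptors therefore moved in opposite directions, Adam22 by 1.53-fold downward (log2 fold change -0.61 ± 0.10 SE, edgeR adjusted p = 0.00808). Adam11 did not pass (log2 fold change 0.13 ± 0.17 SE, edgeR adjusted p = 0.619).

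Their LGI ligands were examined beside them. Lgi2 had 158, 144 and 150 CPM in co-culture against 9.02, 10.4 and 10.3 CPM in controls, a rise by 3.92 ± 0.09 SE on the log2 scale (edgeR adjusted p = 1.45e-05). Every co-culture library was at more than 10 times the level of any control. Lgi3 (0.47) and Lgi4 (-0.49) did not pass, and Lgi1 was not analysed here.

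Most ADAMs made in the male germ line were near 0. Of 22 such genes in the list, 13 were in the table and 2 could be tested. Adam5 (gene ID 11499, chr8:24727093-24824369) rose at low counts, with 74, 67 and 80 counts in co-culture against 43, 30 and 39 in controls. In CPM these were 3.85, 3.70 and 4.28 in co-culture against 2.66, 1.65 and 2.12 in controls, without overlap and with control 4 nearest to co-culture. The log2 fold change was 0.88 ± 0.19 SE (edgeR adjusted p = 0.0205), and the call was lost in 5 of 6 fits that left out 1 library (edgeR adjusted p of 0.0676, 0.0601 and 0.0841 on dropping co-culture 1, 2 or 3, and of 0.0523 and 0.0512 on dropping control 5 or 6). Adam5 lies in a row of family genes on chromosome 8, 0.7 kb from Adam3 and 11.8 kb from Adam32, which is itself 0.7 kb from Adam9. Adam3 had 1 count in all and Adam32 28, and neither was tested. Adam1a (log2 fold change -0.10, edgeR adjusted p = 0.712) shares reads with its near copy Adam1b, 15.2 kb away, whose counts are fractional, so both are uncertain.

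**Figure D2:**
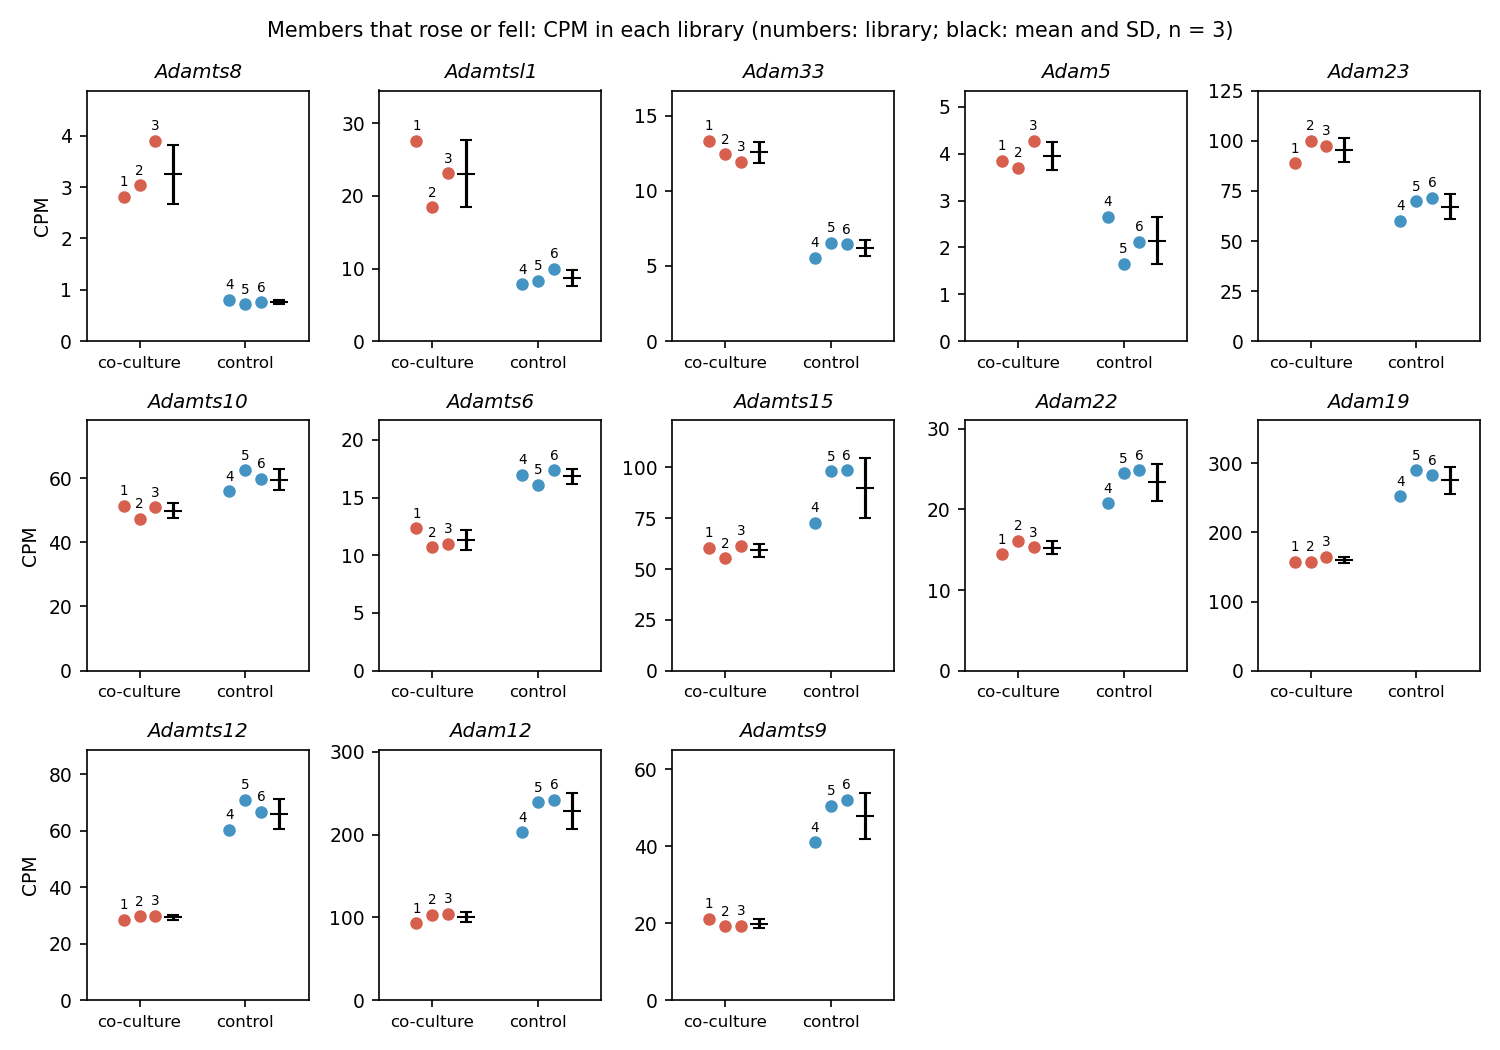
CPM of the 13 called members in each library, on linear axes from 0, with co-culture libraries 1 to 3 left of control libraries 4 to 6 and black bars for mean and SD. No gene has overlapping groups. Control 4 is the lowest control for 7 of the 8 genes that fell and for 3 of the 5 that rose.

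Among 6 tested ADAMTS proteases that cleave aggrecan or versican, 1 rose and 2 fell (median log2 fold change -0.23), against 10.3% of all genes tested in each direction. Adamts8 (gene ID 30806, chr9:30942562-30963838), an enzyme found at high level in lung tissue, had the largest fold change of all members. It gave 54, 55 and 73 counts in co-culture against 13, 13 and 14 counts in controls, or 2.81, 3.03 and 3.90 CPM in co-culture against 0.803, 0.716 and 0.760 CPM in controls. Its groups were far apart, at a 4.25-fold difference (log2 fold change 2.09 ± 0.20 SE, edgeR adjusted p = 0.00114), at low counts in both groups. Directly beside it, 20.1 kb away with 0 coding genes between, lies Adamts15 (gene ID 235130, chr9:30899155-30922452), a versican-cleaving protease that moved the other way. Adamts15 had 60.5, 55.4 and 61.6 CPM in co-culture against 72.7, 98.1 and 98.7 CPM in controls, with control 4 between the co-culture libraries and the other controls. It fell by 0.60 ± 0.13 SE on the log2 scale (edgeR adjusted p = 0.0193), a call that ended on dropping co-culture 1, 2 or 3 or control 5 or 6 (edgeR adjusted p of 0.0696, 0.0817, 0.0682, 0.0603 and 0.0737).

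Adamts9 (gene ID 101401, chr6:92772699-92944450), a secreted versicanase that is also needed at the base of cilia, fell the most of all members. It had 21.1, 19.1 and 19.3 CPM in co-culture against 41.1, 50.5 and 52.1 CPM in controls. Even control 4, the lowest control, was at almost double the highest co-culture library, a 2.41-fold fall (log2 fold change -1.27 ± 0.11 SE, edgeR adjusted p = 7.14e-04). Adamts1, the founding ADAMTS protease and the most abundant member here, had 1494, 1476 and 1514 CPM in co-culture against 1471, 1649 and 1812 CPM in controls. Control 4 was below all co-culture libraries and controls 5 and 6 lay above them, so the ranges overlapped (log2 fold change -0.14 ± 0.10 SE, edgeR adjusted p = 0.388). Without control library 4 the gene passed as lower (log2 fold change -0.21, edgeR adjusted p = 0.0164), as it did with limma voom quality weights (adjusted p = 0.0269).

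Adamts4 and Adamts5, the aggrecanases of cartilage, did not pass either. Adamts4 had 29.3, 31.2 and 36.7 CPM in co-culture against 37.0, 42.3 and 42.6 CPM in controls, with a gap of less than 1 CPM between the groups (log2 fold change -0.33 ± 0.11 SE, edgeR adjusted p = 0.0783). It passed as lower without control library 4 (log2 fold change -0.39, edgeR adjusted p = 0.00372) and with limma voom quality weights (adjusted p = 0.00976). Adamts5 had 346, 297 and 325 CPM in co-culture against 255, 259 and 311 CPM in controls, which overlapped (log2 fold change 0.23 ± 0.10 SE, edgeR adjusted p = 0.169). The 2 genes Adamts1 and Adamts5 are neighbours on chromosome 16, 55.0 kb apart. Adamts20, of the same group, had 0 to 2 counts in each library.

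Of 6 other ADAMTS proteases tested, 0 rose and 3 fell (median log2 fold change -0.17), against 10.3% of all genes tested in each direction. Adamts12 (gene ID 239337, chr15:11064773-11349232), which cleaves cartilage oligomeric matrix protein, had 28.4, 29.7 and 29.9 CPM in co-culture against 60.3, 71.0 and 66.7 CPM in controls. The co-culture libraries agreed within 2 CPM, and the lowest control was at about double their level, a 2.25-fold fall (log2 fold change -1.17 ± 0.08 SE, edgeR adjusted p = 2.88e-04). Adamts7, which shares that substrate, did not follow it, at 55.8, 66.5 and 59.4 CPM in co-culture against 43.9, 52.9 and 52.8 CPM in controls (log2 fold change 0.28 ± 0.10 SE, edgeR adjusted p = 0.106).

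Adamts6 and Adamts10, a pair of related proteases that act on fibrillin microfibrils, both fell. Adamts6 (gene ID 108154, chr13:104286518-104496695) had 12.3, 10.7 and 11.01 CPM in co-culture against 16.99, 16.1 and 17.4 CPM in controls, which stood clear of each other (log2 fold change -0.57 ± 0.09 SE, edgeR adjusted p = 0.00777). Adamts10 (gene ID 224697, chr17:33523646-33553782) had 51.4, 47.4 and 50.9 CPM in co-culture against 56.0, 62.5 and 59.8 CPM in controls, a 1.19-fold fall close to the threshold (log2 fold change -0.25 ± 0.07 SE, edgeR adjusted p = 0.0482). That call was lost in 9 of 11 alternatives, with adjusted p-values of 0.0647 to 0.181. Adamts3, a procollagen and VEGF-C processing enzyme, had 5.26, 5.63 and 5.13 CPM in co-culture against 3.03, 3.91 and 4.56 CPM in controls without overlap, and did not pass (log2 fold change 0.47 ± 0.16 SE, edgeR adjusted p = 0.0887). Adamts17 was under 1 CPM in every library (edgeR adjusted p = 0.901).

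All 4 tested ADAMTS-like genes had a positive log2 fold change, as did 5697 of all 12936 genes tested. Only 1 of the 4 passed, where 20.6% of all genes tested did. Adamtsl1 (punctin, gene ID 77739, chr4:85513852-86428390) had 27.6, 18.4 and 23.2 CPM in co-culture against 7.85, 8.31 and 9.99 CPM in controls. Co-culture libraries varied more than controls but stayed above them, a 2.64-fold rise (log2 fold change 1.40 ± 0.17 SE, edgeR adjusted p = 0.00269). Adamtsl4, which binds fibrillin (0.29, edgeR adjusted p = 0.150), Adamtsl3 (0.27, edgeR adjusted p = 0.249) and Adamtsl5 (0.23, edgeR adjusted p = 0.142) had log2 fold changes below that of Adamtsl1 and did not pass.

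The remaining members were too low for a test, 18 in number, with 1 to 28 counts over all 6 libraries and 5 counts or fewer for 10 of them. They were Adam1b, Adam2, Adam3, Adam4, Adam7, Adam20, Adam21, Adam25, Adam28, Adam30, Adam32, Adam39, Adamts13, Adamts16, Adamts18, Adamts19, Adamts20 and Adamtsl2. After their values were seen, 2 are named for uneven counts. Adamts16 had 8, 5 and 7 counts in co-culture against 2, 1 and 0 in controls, and Adamtsl2 had 2, 0 and 2 counts in co-culture against 6, 4 and 11 in controls. Neither difference was tested.

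**Figure D3:**
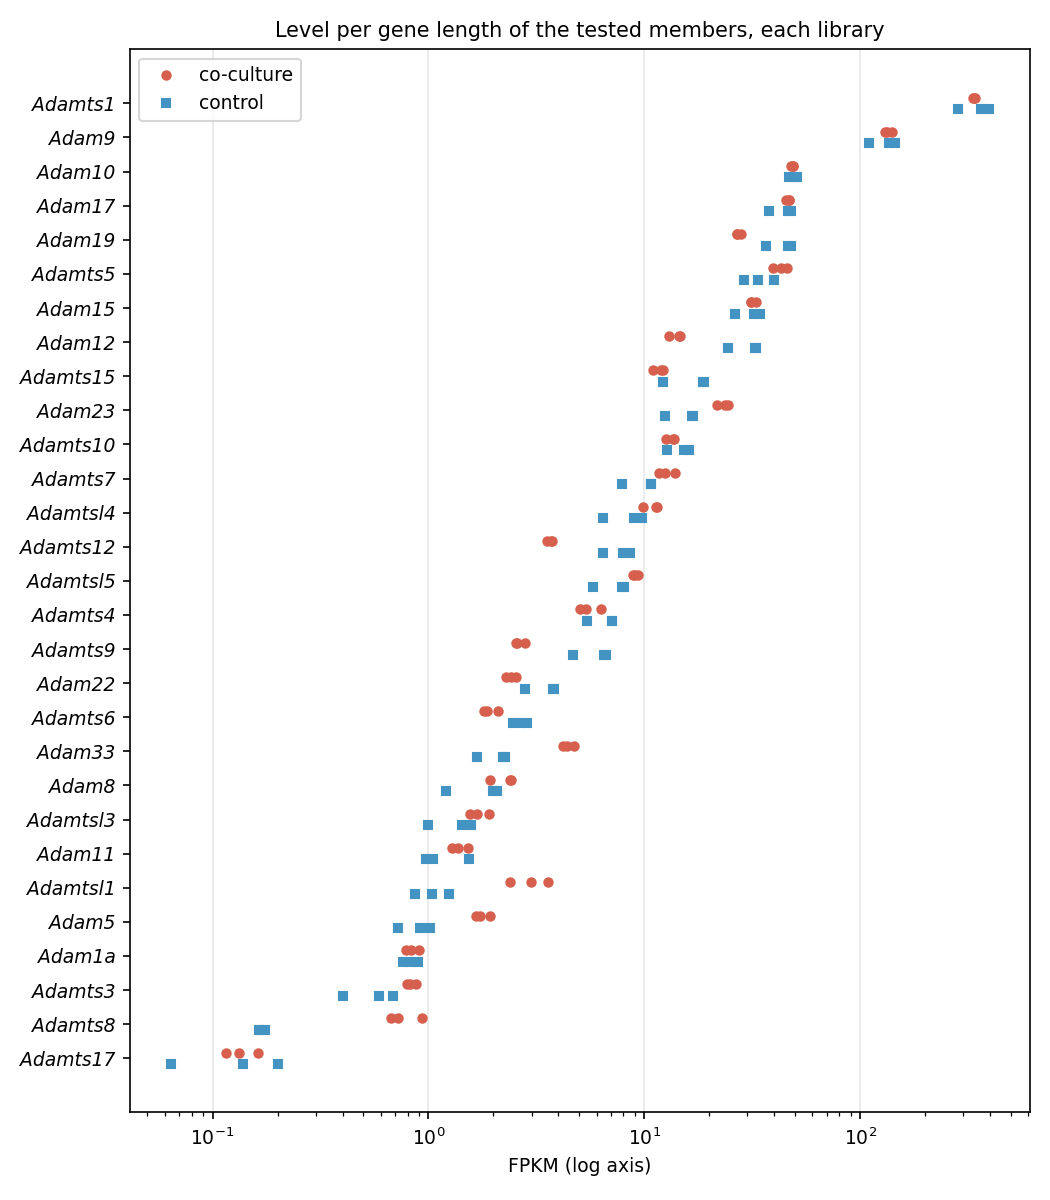
Level per gene length (FPKM, log axis) of the 29 tested members in each library, ordered by the control mean. Adamts1 at the top reaches 332 to 341 in co-culture against 283 to 393 in controls, and the lower rows hold Adamts8 and Adamts17.

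Levels can be compared between genes only per length, as FPKM, a count scaled to gene length and library size, computed here from the counts without the TMM scaling. Adamts1 was first in both groups at 337 ± 4.48 FPKM in co-culture against 346 ± 57.0 FPKM in controls (SD, n = 3 each). Adam9 came second at 134 ± 5.36 FPKM in co-culture against 130 ± 17.9 FPKM in controls, well clear of the next gene. Adam10 (48.4 ± 0.743 and 49.1 ± 2.20 FPKM in co-culture and controls) and Adam17 (46.2 ± 0.937 and 44.1 ± 5.40 FPKM) lay close together, and in controls their difference was within the spread. Adam19 stood at 27.2 ± 0.671 FPKM in co-culture, rank 7, and at 43.6 ± 6.16 FPKM in controls, rank 5, where it was within the spread of Adam17. Adam12 held 14.0 ± 0.866 FPKM in co-culture against 29.9 ± 4.87 FPKM in controls, ranks 9 and 8. Adam23, at 23.2 ± 1.42 FPKM in co-culture against 15.3 ± 2.43 FPKM in controls, ranked above Adam12 in co-culture and below it in controls. At the bottom were Adamts8, with 0.777 ± 0.138 FPKM in co-culture against 0.168 ± 0.00598 FPKM in controls, and Adamts17, with 0.137 ± 0.0239 and 0.135 ± 0.0684 FPKM. In co-culture Adamts8 was within the spread of Adamts3 (0.830 ± 0.0392 FPKM) and Adam1a (0.840 ± 0.0582 FPKM). Summed over all members, levels were 3542, 3479 and 3611 CPM in co-culture against 3627, 4031 and 4286 CPM in controls, so control 4 lay next to the co-culture libraries.

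A second table gives the counts of 154 RefSeq transcripts of the members, 28 of which have several transcripts and 19 only 1. Use of transcripts could be tested for 20 members with edgeR's diffSpliceDGE, and 0 of them changed (Benjamini-Hochberg adjusted p under 0.05), where 0.443% of 7671 genes did. At an unadjusted Simes p under 0.05 there were 2, Adam33 (edgeR adjusted p = 0.182) and Adamts7 (edgeR adjusted p = 0.377). The share of all 7671 genes under that unadjusted threshold was not determined, so these 2 are only described. In Adam33 the predicted transcript XM_011239248 took 33.8%, 25.1% and 17.8% of the gene's counts in co-culture libraries 1 to 3 and is listed at 0 in every control. In Adamts7, NM_001003911 took 0%, 0% and 0.737% in co-culture against 5.72%, 14.1% and 12.2% in controls, and that gene passed without co-culture library 3 (edgeR adjusted p = 0.0171). Transcripts of 1 gene share most of their bases, and the estimate that assigns reads to them is less certain than a gene count. Adam12, Adamts1 and Adamts12 have only 1 listed transcript each, so their use of transcripts could not be examined. In Adam19, NM_009616 held 96.4% ± 0.963 of the gene's counts in co-culture against 96.9% ± 1.598 in controls.

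**Figure D4:**
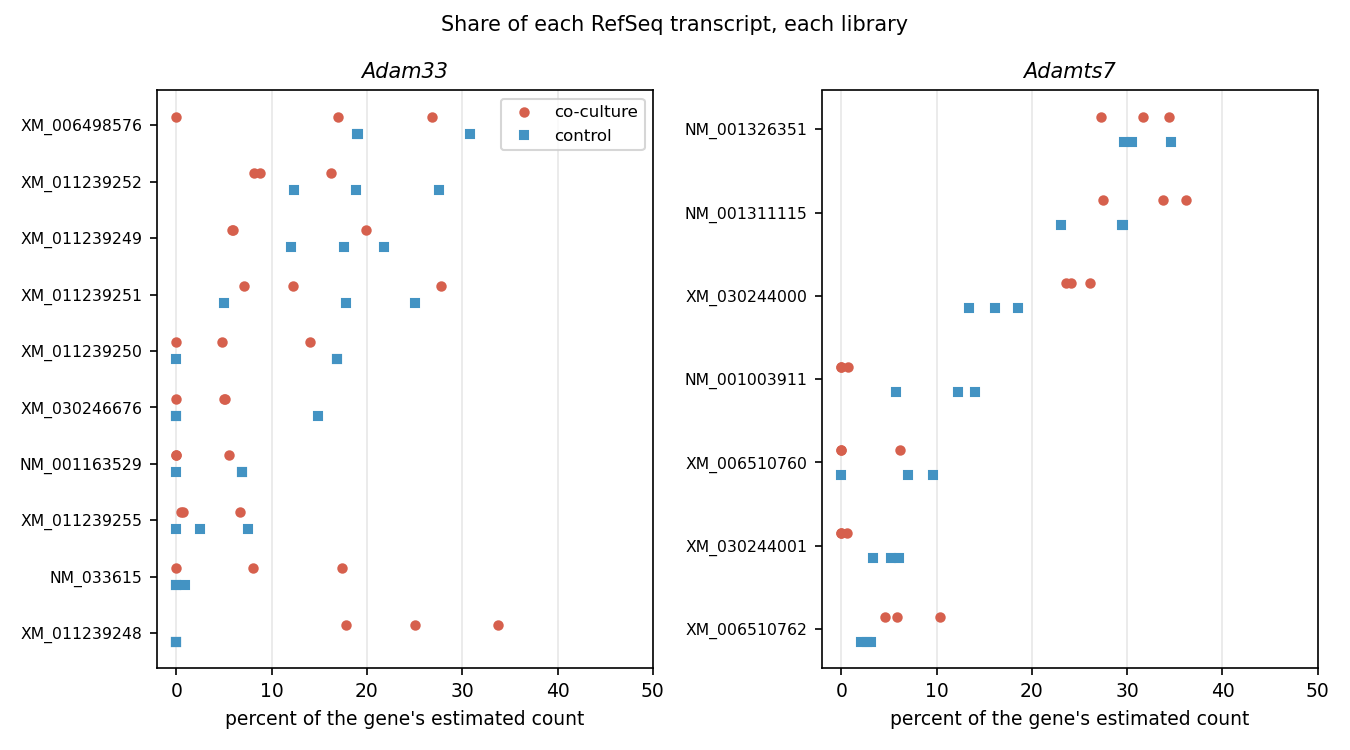
Share of each RefSeq transcript in the gene's estimated count for Adam33 and Adamts7, with 1 point per library, co-culture circles above control squares. XM_011239248 of Adam33 lies at 17.8% to 33.8% in co-culture and at 0 in controls, and most other transcripts of Adam33 scatter widely within both groups.

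Some counts may hold reads of other genes, since the strandedness of the libraries is not given in the sources used here. In the RefSeq annotation, 4 long non-coding RNA genes lie inside Adam12 and Adamts9 overlaps 4. Reads from such overlaps cannot be told apart by strand in these tables.

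Inhibitors and processing enzymes of the family were also examined, from lists of known partners. Of 6 tested inhibitors 2 rose and 0 fell (median log2 fold change 0.14), where 10.3% of all genes tested rose and 10.3% fell. Reck, a membrane-anchored inhibitor of ADAM10, had 74.6, 68.2 and 71.8 CPM in co-culture against 47.4, 52.9 and 54.0 CPM in controls, a rise without overlap (log2 fold change 0.48 ± 0.08 SE, edgeR adjusted p = 0.00701). Papln (papilin), an ADAMTS-related matrix protein, rose at a low level of 1.09, 0.607 and 1.07 CPM in co-culture against 0.185, 0.440 and 0.272 CPM in controls (log2 fold change 1.59 ± 0.40 SE, edgeR adjusted p = 0.0357). Papln had only 3.49, 7.88 and 5 counts in controls and entered the test through its co-culture reads alone. The count of 2 inhibitors that rose therefore depends in part on the low-count filter, as does the rise of Papln. Dropping co-culture 1, co-culture 3 or control 6 ended the call of Papln (edgeR adjusted p of 0.120, 0.118 and 0.0953), as did DESeq2 (0.0505). Timp3, the inhibitor that binds ADAM17 and several ADAMTS proteases in the matrix, had 332, 301 and 319 CPM in co-culture against 347, 386 and 363 CPM in controls, and missed the threshold (log2 fold change -0.21 ± 0.08 SE, edgeR adjusted p = 0.105). It passed as lower without control library 4 (log2 fold change -0.24, edgeR adjusted p = 0.00579) and with limma voom quality weights (adjusted p = 0.00880). A2m was too low to test, and Pzp was not analysed here.

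Of 11 tested genes for maturation and transport of the proteases, 2 rose and 3 fell (median log2 fold change -0.19), against 10.3% of all genes in each direction. The 3 that fell were the convertases Furin (155 ± 9.90 CPM in co-culture against 237 ± 33.4 CPM in controls, log2 fold change -0.61 ± 0.12 SE), Pcsk6 (6.58 ± 0.601 and 12.4 ± 1.77 CPM, -0.91 ± 0.14) and Pcsk5 (0.605 ± 0.157 and 1.67 ± 0.305 CPM, -1.45 ± 0.27), with edgeR adjusted p-values of 0.0134, 0.00587 and 0.0119 (SD, n = 3 each). Pcsk5 entered the test through its control reads alone, with 15, 10 and 9 counts in co-culture against 30, 24 and 34 in controls. Pcsk7 did not pass (0.07). Dropping co-culture 1, co-culture 3 or control 6 ended the call of Furin (edgeR adjusted p of 0.0630, 0.0620 and 0.0570), and dropping co-culture 2 or 3 that of Pcsk5 (0.0538 and 0.0537). Rhbdf2, the iRhom that escorts ADAM17 to the surface, had 21.2, 24.4 and 22.7 CPM in co-culture against 14.5, 14.7 and 13.9 CPM in controls, and rose without overlap (log2 fold change 0.66 ± 0.09 SE, edgeR adjusted p = 0.00346). Its relative Rhbdf1 did not pass (log2 fold change -0.12 ± 0.08 SE, edgeR adjusted p = 0.354). Tspan17, a tetraspanin partner of ADAM10, rose by 0.39 ± 0.11 SE on the log2 scale (edgeR adjusted p = 0.0469), a call lost without any 1 library other than control 4 (edgeR adjusted p of 0.0866 to 0.156), with DESeq2 (0.0664) or with no low-count filter (0.0577). Fbln1, a cofactor of ADAMTS1, rose by 0.30 ± 0.07 SE (edgeR adjusted p = 0.0253), and dropping co-culture 1, 2 or 3 or control 6 ended its call (0.0782, 0.0968, 0.0964 and 0.0697). Lrp1, the receptor that takes up several ADAMTS proteases, had 3565 ± 353 CPM in co-culture against 4277 ± 662 CPM in controls, and missed the threshold (log2 fold change -0.26 ± 0.15 SE, edgeR adjusted p = 0.276), but passed as lower without control library 4 (-0.39, edgeR adjusted p = 0.00260) and with limma voom quality weights (-0.36, adjusted p = 0.00819).

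**Figure D5:**
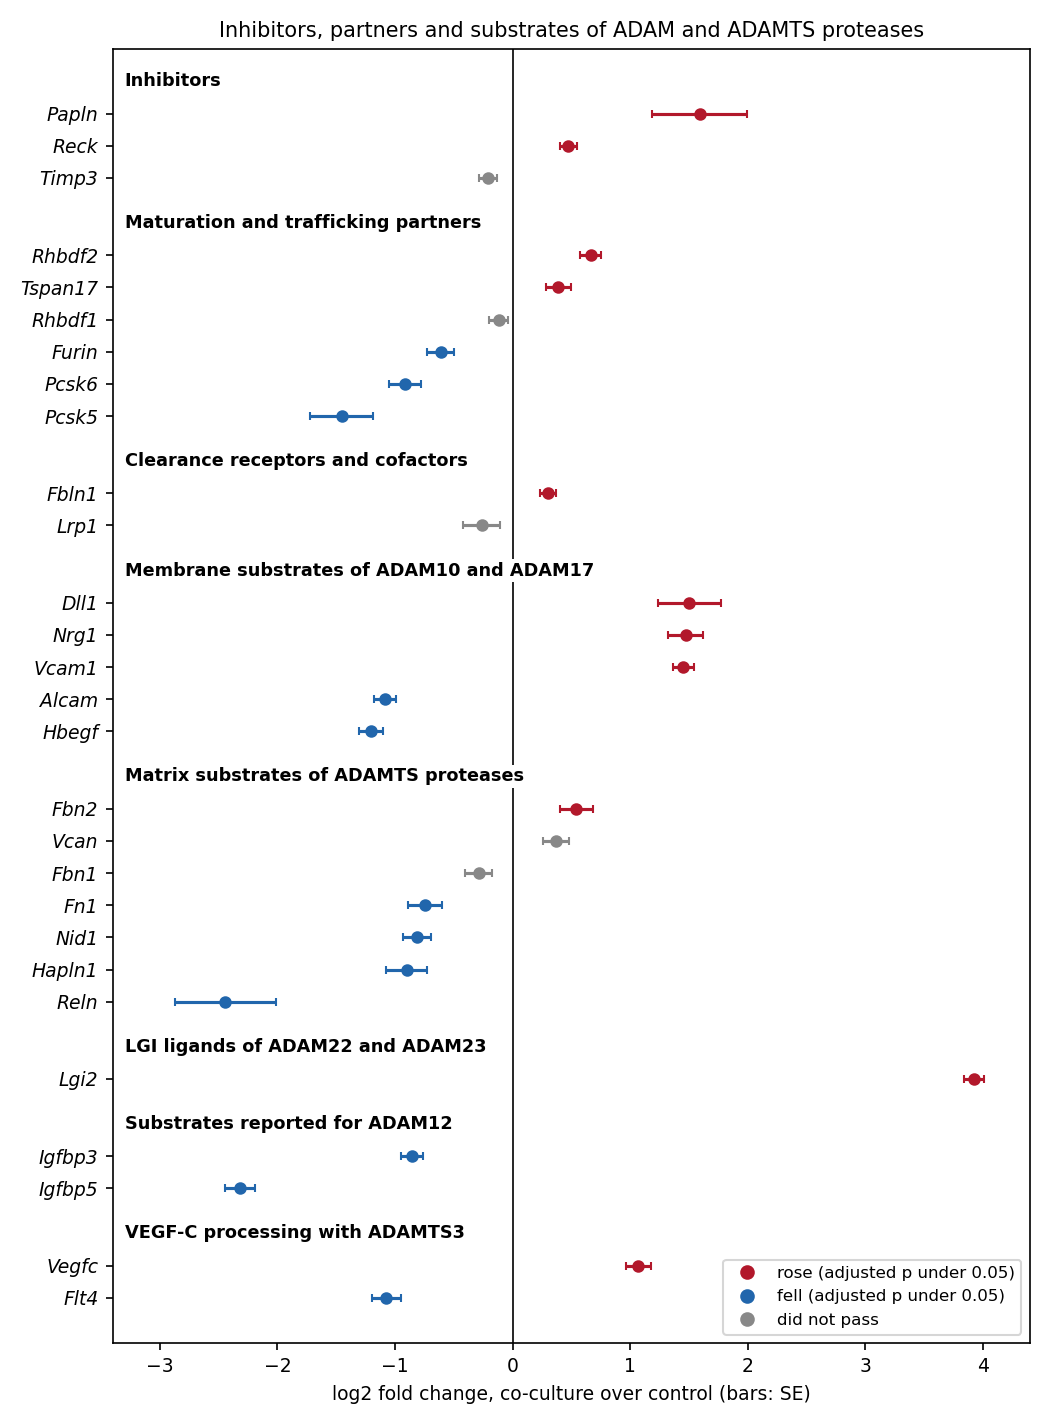
Log2 fold change, co-culture over control, of the named inhibitors, partners and substrates, with bars of 1 SE. Lgi2 lies farthest right at 3.92 and Reln, which had enough reads for a test only in controls, farthest left at -2.44. Substrates of both directions stand side by side.

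RNA levels of substrates say nothing of their cleavage and are given for context. Of 28 tested membrane substrates of ADAM10 and ADAM17, 9 rose and 8 fell (median log2 fold change -0.03), against 10.3% of all genes tested in each direction. The Notch ligand Dll1 rose, at 3.34 ± 0.759 CPM in co-culture against 1.18 ± 0.339 CPM in controls (log2 fold change 1.50 ± 0.27 SE, edgeR adjusted p = 0.0108). Nrg1, the neuregulin that ADAM17 and ADAM19 release, rose too, at 34.1, 25.3 and 30.5 CPM in co-culture against 10.6, 9.47 and 12.3 CPM in controls (log2 fold change 1.47 ± 0.15 SE, edgeR adjusted p = 0.00128). Its direction was opposite to that of Adam19. Vcam1, a leukocyte adhesion molecule, had 932 ± 38.2 CPM in co-culture against 340 ± 28.9 CPM in controls (log2 fold change 1.45 ± 0.09 SE, edgeR adjusted p = 2.24e-04). The adhesion molecule Alcam fell, with 364 ± 35.0 CPM in co-culture against 772 ± 11.5 CPM in controls (log2 fold change -1.09 ± 0.09 SE, edgeR adjusted p = 6.48e-04).

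All 4 listed substrates of ADAM12 passed, Dll1 upward and the other 3 downward. Over all genes tested 20.6% passed, and this short list was drawn up with earlier results of these data known. Dll1 and Hbegf are also on the list for ADAM10 and ADAM17. Hbegf, heparin-binding EGF, had 6.72, 6.67 and 7.11 CPM in co-culture against 17.4, 15.5 and 14.4 CPM in controls, less than the lowest control in every library (log2 fold change -1.20 ± 0.11 SE, edgeR adjusted p = 7.42e-04). Igfbp5 had 98.6, 84.6 and 86.7 CPM in co-culture against 375, 486 and 485 CPM in controls (log2 fold change -2.32 ± 0.13 SE, edgeR adjusted p = 1.51e-04), and Igfbp3 fell by 0.86 ± 0.09 SE (edgeR adjusted p = 0.00168). These 3 genes and Adam12 itself were all lower in co-culture, and a link between them was not tested.

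Of 14 tested matrix substrates of ADAMTS proteases 1 rose and 4 fell (median log2 fold change -0.16), against 10.3% of all genes in each direction. Nid1 (nidogen) fell, at 1675 ± 139 CPM in co-culture against 2944 ± 266 CPM in controls (log2 fold change -0.81 ± 0.12 SE, edgeR adjusted p = 0.00503). Fn1 (fibronectin) fell by 0.74 ± 0.15 SE on the log2 scale (edgeR adjusted p = 0.0151) and Fbn2 rose by 0.54 ± 0.14 SE (0.0351), and both calls were lost without any 1 library other than control 4 (edgeR adjusted p of 0.0608 to 0.0772 and 0.0504 to 0.126). Reln and Hapln1 fell at low levels, at 0.181 ± 0.116 CPM in co-culture against 0.999 ± 0.121 CPM in controls for Reln (-2.44 ± 0.43 SE, edgeR adjusted p = 0.0100) and at 1.20 ± 0.177 and 2.24 ± 0.0938 CPM for Hapln1 (-0.90 ± 0.17 SE, 0.0140). Reln entered the test through its control reads alone. Hapln1 lost its call on dropping co-culture 1 or 2 (edgeR adjusted p of 0.0580 and 0.0583) and with DESeq2 (0.0505). Vcan (versican), the main substrate of ADAMTS1, ADAMTS9 and ADAMTS15, had 1047, 1252 and 1194 CPM in co-culture against 816, 931 and 959 CPM in controls, which did not overlap, and just missed the threshold (log2 fold change 0.37 ± 0.11 SE, edgeR adjusted p = 0.0570). It passed as higher without control library 4 (0.30, edgeR adjusted p = 0.00676), with DESeq2 (0.38, DESeq2 adjusted p = 0.0314) and with limma voom quality weights (0.32, adjusted p = 0.00689). Fbn1 (fibrillin) did not pass (log2 fold change -0.29 ± 0.11 SE, edgeR adjusted p = 0.126) but did as lower without control library 4 (-0.40, edgeR adjusted p = 1.70e-04) and with limma voom quality weights (-0.38, adjusted p = 0.00107).

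Vegfc, the lymphatic growth factor that ADAMTS3 activates, had 35.5, 28.8 and 29.3 CPM in co-culture against 14.8, 14.5 and 15.3 CPM in controls, a rise of 1.07 ± 0.10 SE on the log2 scale (edgeR adjusted p = 0.00110). Flt4, its receptor, fell, with 4.32, 4.80 and 5.35 CPM in co-culture against 9.45, 11.1 and 9.94 CPM in controls (log2 fold change -1.07 ± 0.12 SE, edgeR adjusted p = 0.00193). Ccbe1, the cofactor of that activation, did not pass (log2 fold change 0.17, edgeR adjusted p = 0.170).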

How the data were processed

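Total RNA of 6 libraries was sequenced. Per the labels, HISAT was the aligner, and the submitters' processing notes name mm10. How reads were counted, with which annotation, kit and strand setting, is not given in the sources used here. The authors deposited estimated counts, which need not be whole, for 17023 genes and 58236 transcripts. The deposited FPKM values (per the file headers) served only to derive gene lengths. Another 21 deposited per-sample columns were not used. The columns number controls 4 to 6, whereas the labels count them from 1, so controls were assigned to their group only.

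Counts were rounded and tested with edgeR 4.0.16 (R 4.3.3) on all genes, using filterByExpr, TMM factors and the quasi-likelihood test (two-sided, no covariate), with Benjamini-Hochberg adjustment over 12936 genes and a threshold of 0.05. The SE was taken as the size of the log2 fold change over the root of F. Transcript use was tested with diffSpliceDGE (Simes p per gene). The same steps were run on simulated counts with a fixed spread for all genes and no library that stands apart as control 4 does. That run cannot check the calls made here. Alternatives were RLE and upper-quartile factors, DESeq2 1.42.0, no low-count filter, limma 3.58.1 voom with quality weights, and leaving out each library. Library depth was 17496056 to 18496623 counts. Coordinates are from RefSeq GRCm38.p6, the assembly mm10 denotes (16975 gene IDs matched). Members, partner lists and tests were chosen with earlier results of these data known. Named were all called members, and of each partner list the 5 called genes with the largest change plus Timp3, Reck, Rhbdf1, Rhbdf2, Lgi2, Vcan, Fbn1 and Lrp1.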

Additional observations from a re-analysis of the deposited data

How the results depend on the processing

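Over 11 alternatives, 9 of the 13 called members kept their call in each, 4 (Adam23, Adam5, Adamts15 and Adamts10) lost it in at least 1, and 2 uncalled ones (Adamts1 and Adamts4) gained one without control library 4 and with quality weights. No called member turned its sign, while the uncalled Adam17, Adam9 and Adamts17 did in at least 1 alternative. Members called were 5 higher and 7 lower with RLE factors, upper-quartile factors, DESeq2 or no filter, and 5 and 10 with quality weights. Leaving out 1 library at a time gave 3 to 5 higher (3 without co-culture library 3) and 6 to 10 lower (10 without control library 4), and 0 to 1 members with changed transcript use. Over all genes, calls were 1333 higher and 1330 lower, 2201 and 2488 with quality weights, and 1514 and 912 with upper-quartile factors, which also moved the members' median log2 fold change to 0.01. Leaving out 1 library gave 612 to 2445 higher and 598 to 2598 lower, the most without control library 4, and fewer in each other fit with its smaller number of libraries. Of 23 named partner genes that were called, 8 lost the call in at least 1 alternative. Matrix substrates ranged over 0 to 3 higher and 2 to 8 lower, membrane substrates over 5 to 10 and 4 to 11, maturation partners over 1 to 2 and 1 to 5, and inhibitors over 1 to 3 and 0 to 2. The cause of these changes was not tested. No paired analysis was possible because the control columns carry numbers other than the replicate numbers of the labels. Depth limits the 18 untested members and genes under 1 CPM.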
